A study of Mus musculus with 6 samples.

Results

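The major histocompatibility complex (MHC) class II pathway was examined in sorted microglia, the macrophages that live in brain tissue, through 10 genes: the invariant chain Cd74, the class II chains H2-Aa, H2-Ab1 and H2-Eb1, the peptide-loading genes H2-DMa, H2-DMb1 and H2-DMb2, the loading inhibitor genes H2-Oa and H2-Ob, and the transactivator Ciita. All 10 were found by symbol among the 24956 gene rows of the count table, and all 10 passed the filter on low counts that left 14520 genes for testing. The genes were chosen by their role in the pathway with the difference in their levels between these same 2 groups already known. Their group differences are therefore given as a description, and nothing is read from how many of them pass a threshold. The cells came from 3XTg-AD mice 7 months old and were sorted by flow cytometry. This strain carries mutant human APP and MAPT transgenes, driven in neurons by a Thy1 promoter, among its alleles, and both groups share it. One group received an antibody to NK1.1, which natural killer (NK) cells carry on their surface, and the other an isotype control antibody, at 25 µg every 4 days for 4 weeks. NK1.1 is also found on NKT cells and some other innate lymphocytes. Each group has 3 libraries, and the labels do not say whether a library is 1 animal or a pool, so the spread between libraries may be technical.

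Class II molecules display peptides from the endosomal pathway to CD4+ T cells. An alpha and a beta chain pair in the endoplasmic reticulum around the invariant chain, which blocks the groove and steers the complex to endosomes. Proteases such as cathepsin S trim the invariant chain there, H2-DM exchanges its last fragment for a peptide, and H2-DO restrains H2-DM. Transcription of these genes depends on CIITA, a coactivator that is induced by interferon gamma and docks onto factors bound at paired X and Y boxes upstream of the genes. Microglia at rest hold little class II, and higher levels mark activated microglia, border-associated macrophages, dendritic cells and B cells.

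Sequences upstream of RefSeq start sites are shown for 6 of the 10 genes for their paired cores, in chain, loading and inhibitor genes alike. RefSeq promoter windows (build GRCm38.p6, 250 bases before to 50 after the start site) were at hand for 7 of the 10 genes as 8 windows, and not for Cd74, H2-Ab1 and Ciita. The Y box core ATTGG, searched on both strands, was in 7 of the 8 windows and in 37.4% of all 32851 windows. The X1 box core GCAAC was in 5 of 8 against 35.2% of all, and the X2 box core TGACG in 1 of 8, that of H2-Aa, against 20.8%. The interferon gamma activated site TTCNNNGAA was in 1 of 8, that of H2-DMb2, against 8.30%. TGATG, a variant of the X2 core added after the windows had been seen, was in 6 of 8 against 39.3%. A spaced pair was then searched, an AAC upstream of an ATTGG on the same strand, with either strand allowed; the AAC overlaps the GCAAC core where both occur. A first spacing of 33 to 37 bases from start to start found it in 1 of the 8 windows, against 2.85% of all. The range was then reset to 28 to 31 bases after the windows had been seen, so as to take in the spacings found there, and this range is in 6 of the 8 windows and in 2.49% of all. Since the range was fitted to these genes, the share of all windows is a description and no test. The 2 windows without it are those of H2-DMa. The stretches from 10 bases before the AAC to 5 after the ATTGG are given 5′ to 3′ in the direction of transcription, with both cores in capitals.
H2-Aa (chr17:34287862-34287912, minus strand): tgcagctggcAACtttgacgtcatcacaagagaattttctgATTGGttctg
H2-Eb1 (chr17:34305768-34305817, plus strand): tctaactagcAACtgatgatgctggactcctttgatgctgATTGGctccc
H2-DMb1 (chr17:34153089-34153139, plus strand): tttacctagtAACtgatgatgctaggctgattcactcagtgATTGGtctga
H2-DMb2 (chr17:34145118-34145168, plus strand): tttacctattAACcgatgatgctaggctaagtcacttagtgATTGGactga
H2-Oa (chr17:34092295-34092345, plus strand): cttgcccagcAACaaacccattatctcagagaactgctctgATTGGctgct
H2-Ob (chr17:34238810-34238857, plus strand): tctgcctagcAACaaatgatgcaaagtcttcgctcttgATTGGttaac
The ATTGG starts 43 to 90 bases before the RefSeq start site. The gene spans given below are from GENCODE, whose starts can differ. By those spans the stretches of H2-DMb1 and H2-DMb2 lie inside the gene, and that of H2-Oa crosses its start. The pair stands before the RefSeq start of genes that were higher after the antibody (H2-Aa, H2-Eb1, H2-DMb1). It also stands before that of genes whose groups overlapped (H2-DMb2, H2-Oa, H2-Ob), as the values that follow show.

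The libraries held 26893620 to 36098252 gene counts each. Levels are given as CPM, a gene's counts relative to the library's total after scaling with TMM factors that correct for library makeup, and a floor of 3 counts is then worth 0.0784 to 0.120 CPM. Klrb1c, the gene of NK1.1, gave 50, 45 and 80 counts after the isotype antibody, and after anti-NK1.1 it gave 0, 0 and 13. Markers of microglia were abundant in every library: the 12 listed genes summed to 35923 to 40756 CPM in isotype and 31725 to 41526 CPM in anti-NK1.1 libraries. Transcripts of neutrophils were also abundant in this sort. Their 13 listed genes summed to 75503 to 102740 CPM in isotype libraries and to 32811, 33530 and 142630 CPM in anti-NK1.1 libraries 1 to 3. Libraries also differed in how level depended on transcript length. Spearman's rho of the deviation from the gene mean with length, across genes that are not independent, was -0.16, 0.25 and -0.31 in anti-NK1.1 libraries 1 to 3 and -0.01, 0.04 and 0.33 in isotype libraries 1 to 3. Anti-NK1.1 libraries 1 and 3 were thus poor in long transcripts, and most class II transcripts are short. Values with a correction for length and GC content, and with anti-NK1.1 2 as the only treated library, are therefore given for the 10 genes and for the median of each list.

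Cd74 encodes the invariant chain (chromosome 18, 60803848 to 60812652, plus strand, 9 exons, GRCm38). It had 1794, 1920 and 1796 CPM in isotype libraries 1 to 3 and 5378, 3895 and 4665 CPM in anti-NK1.1 libraries 1 to 3. The isotype libraries lay within a coefficient of variation of 3.91%, and the lowest anti-NK1.1 library was 2.03 times the highest isotype library. Group means were 1837 ± 71.8 and 4646 ± 742 CPM (SD, n = 3 each). The log2 change, anti-NK1.1 against isotype here and throughout, was 1.34 ± 0.20 (standard error, SE, of the edgeR fit), and 0.90 ± 0.18 with offsets for length and GC content.

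H2-Ab1, the beta chain of the A molecule (chromosome 17, 34257689 to 34269419, plus strand, 6 exons), had 1026, 1055 and 883 CPM in isotype and 3584, 1990 and 3017 CPM in anti-NK1.1 libraries. Its alpha partner H2-Aa (chromosome 17, 34282744 to 34287823, minus strand, 5 exons) had 845, 750.0 and 592 CPM against 2756, 1432 and 1983 CPM. For both chains every anti-NK1.1 library lay above every isotype library, and library 2 was the lowest of the 3. The mean levels were 2.90 and 2.82 times those in isotype, with log2 changes of 1.54 ± 0.25 and 1.50 ± 0.27. With the length and GC offsets they were 1.03 ± 0.19 and 1.30 ± 0.24.

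H2-Eb1, the beta chain of the E molecule (chromosome 17, 34305867 to 34316674, plus strand, 6 exons), had 664, 614 and 517 CPM in isotype and 2122, 1209 and 1582 CPM in anti-NK1.1 libraries. Its log2 change was 1.45 ± 0.25, or 1.29 ± 0.24 with the offsets, and again the groups did not overlap. The alpha chain gene of the E molecule is a pseudogene in mice of the b haplotype, named H2-Ea-ps in the table, and it had no count in any library. Transcripts of a beta chain without its alpha partner were thus present at 358 CPM per kb of transcript in isotype and 981 CPM per kb in anti-NK1.1 libraries. H2-Eb2, a second beta gene that was named after its values were seen, had 0, 9 and 2 counts in isotype and 28, 30 and 16 in anti-NK1.1 libraries, a level close to the floor.

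**Figure D1:**
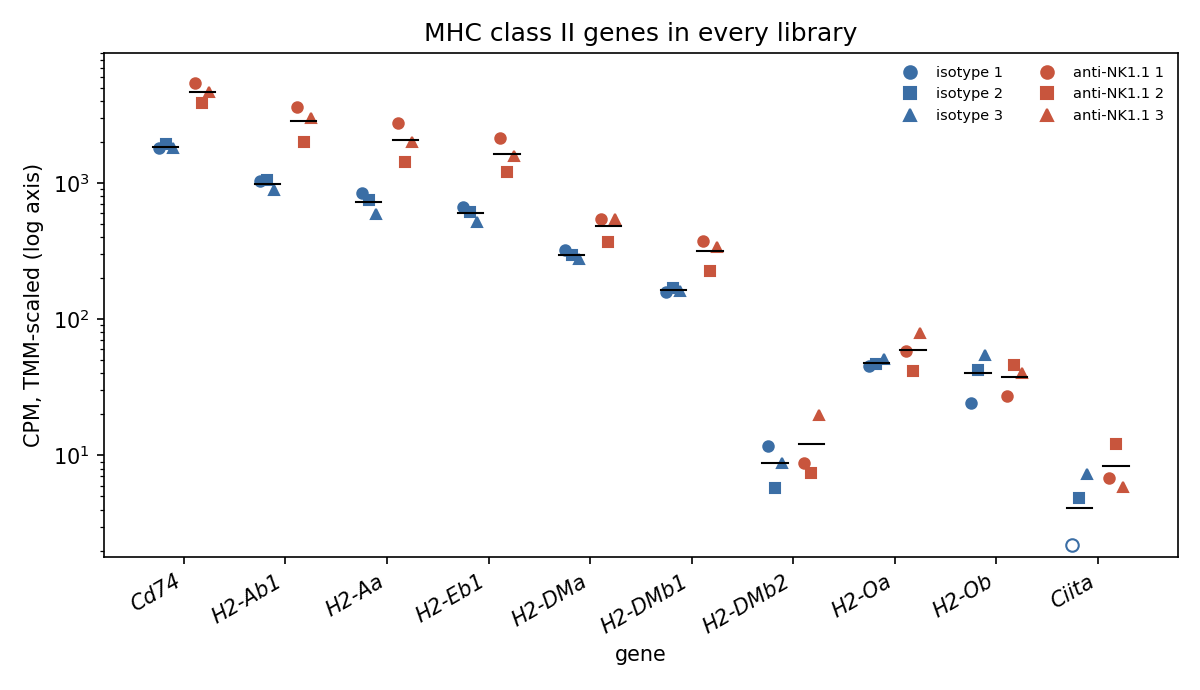
Level of each of the 10 class II genes in every library, in TMM-scaled CPM on a log axis; blue is isotype, red is anti-NK1.1, marker shapes are libraries 1 to 3, and horizontal bars are group means (n = 3). The open circle for Ciita stands for 0 counts in isotype 1 and is drawn at the foot of the axis. For the 6 genes at the left all anti-NK1.1 libraries lie above all isotype libraries, while the 4 at the right overlap.

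The loading genes differed less than the chains. H2-DMa, the alpha chain of H2-DM (chromosome 17, 34119541 to 34139101, plus strand), had 322, 294 and 275 CPM in isotype and 545, 368 and 546 CPM in anti-NK1.1 libraries. H2-DMb1, its beta chain (chromosome 17, 34153072 to 34160230, plus strand), had 158, 168 and 162 CPM against 378, 227 and 341 CPM. Neither gene's groups overlapped, but for H2-DMa the lowest anti-NK1.1 library was only 1.14 times the highest isotype library. The log2 changes were 0.71 ± 0.23 for H2-DMa and 0.95 ± 0.24 for H2-DMb1. With the length and GC offsets they were 0.29 ± 0.20 and 0.63 ± 0.21, smaller for both genes. The library kits do not mark strand, and H2-DMa, H2-Oa and Ciita each overlap a gene of the other strand in the table (Brd2, BC051537 and Dexi), whose reads cannot be told apart by strand.

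H2-DMb2, a second beta chain gene of H2-DM beside H2-DMb1 (chromosome 17, 34143307 to 34151555, plus strand), was scarce, at 11.7, 5.80 and 8.83 CPM in isotype and 8.77, 7.39 and 19.9 CPM in anti-NK1.1 libraries. Only anti-NK1.1 3 lay above the isotype range, and the log2 change was 0.45 ± 0.54, or 0.09 ± 0.52 with the offsets and -0.24 with anti-NK1.1 2 as the only treated library. Of the 75-base stretches of the H2-DMb1 transcript, 75 bases being the read length, 19.1% also occur in H2-DMb2, and 20.8% of those of H2-DMb2 occur in other genes, so the split of reads between the 2 genes is uncertain. H2-DMb2 counts were 2.32% to 7.42% of H2-DMb1 counts. Of the other 8 genes, none had such a stretch in common with another gene's transcripts.

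The genes of H2-DO, the inhibitor of H2-DM, did not separate the groups. H2-Oa, its alpha chain (chromosome 17, 34092340 to 34095234, plus strand), had 45.4, 47.0 and 50.9 CPM in isotype and 58.1, 41.6 and 79.3 CPM in anti-NK1.1 libraries. H2-Ob, its beta chain (chromosome 17, 34238903 to 34254414, plus strand), had 24.3, 42.4 and 54.1 CPM against 27.2, 45.9 and 39.9 CPM. Both pairs of groups overlapped. The log2 changes were 0.32 ± 0.29 and -0.10 ± 0.36, and both took the other sign with the length and GC offsets, at -0.17 ± 0.26 and 0.09 ± 0.31, and with anti-NK1.1 2 as the only treated library, at -0.19 and 0.19. Scaling to the microglia markers also turned H2-Ob, to 0.01, so no direction can be given for either gene.

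Ciita, the transactivator of the pathway (chromosome 16, 10480059 to 10528418, plus strand, 19 exons, transcript of 6007 bases), was the scarcest of the 10. It had 0, 157 and 281 counts in isotype libraries 1 to 3, which are 0, 4.87 and 7.34 CPM, and 182, 416 and 148 counts in anti-NK1.1 libraries, which are 6.85, 12.1 and 5.90 CPM. By counting error alone, a count of 0 in isotype 1 allows a level of up to 0.0837 CPM, and losses before sequencing could hide more. Isotype 3 lay above anti-NK1.1 1 and 3, and the groups overlapped. The log2 change of 1.03 ± 1.29 had an SE larger than itself and rests on isotype 1: without that library it was 0.45. It was 1.03 ± 1.20 with the offsets and 1.58 with anti-NK1.1 2 as the only treated library. The library with most Ciita among the anti-NK1.1 libraries, library 2, was the one with the lowest Cd74, H2-Aa, H2-Ab1, H2-Eb1, H2-DMa and H2-DMb1. The Ciita transcript is long, and anti-NK1.1 libraries 1 and 3 were poor in long transcripts. The part of that in this opposite order was not tested.

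**Figure D2:**
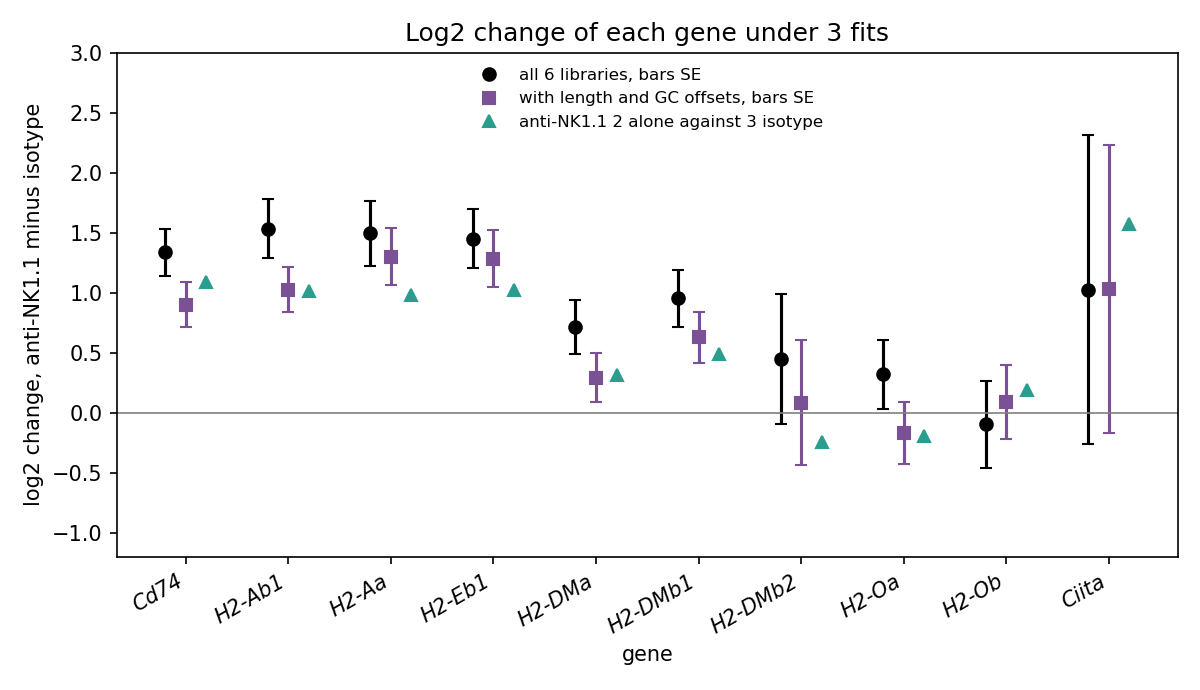
Log2 change of each gene, anti-NK1.1 minus isotype, from edgeR with all 6 libraries (black circles), with offsets for transcript length and GC content (purple squares) and from anti-NK1.1 library 2 alone against the 3 isotype libraries (green triangles, no error bar drawn); other bars are SE. Cd74 and the 3 chains stay at 0.90 or above in all 3 fits, while H2-DMb2, H2-Oa and H2-Ob lie on both sides of 0.

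Over all genes edgeR's quasi-likelihood test called 0 of the 10 at an adjusted p under 0.05, as it called 0% of the 14520 genes tested. At an unadjusted p under 0.05 it placed 6 of the 10 higher, against 2.74% of all tested genes. DESeq2 called 5 of the 10 higher (Cd74, H2-Aa, H2-Ab1, H2-Eb1 and H2-DMb1), against 0.332% of all genes, and limma voom with sample weights called 3, against 0.0275% of all genes. Every anti-NK1.1 library lay above every isotype library for 6 of the 10, against 7.73% of tested genes, and below for none, against 7.59%. The median log2 change was 0.99 over the 10 genes and 0.01 over all tested genes. Because this contrast was known when the genes were chosen, these counts describe the list and support nothing further. In a bulk sample, more cells of a type and more RNA per cell cannot be told apart.

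One library bears on the calls. Without anti-NK1.1 2, edgeR called 129 genes, 12 of them higher (0.0801% of those tested) and 117 lower, and among the 12 were the same 5 class II genes that DESeq2 called with all libraries. The log2 changes were then 1.45 for Cd74, 1.70 for H2-Aa, 1.74 for H2-Ab1, 1.63 for H2-Eb1 and 1.14 for H2-DMb1. With anti-NK1.1 2 as the only treated library they were 1.09, 0.98, 1.02, 1.02 and 0.49, and H2-DMa had 0.32.

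Levels per length order the genes by abundance. In isotype libraries Cd74 had 1303 CPM per kb of transcript, H2-Ab1 815, H2-Aa 646, H2-Eb1 358, H2-DMa 179 and H2-DMb1 116. H2-Oa followed with 43.9, H2-Ob with 15.1, H2-DMb2 with 6.17 and Ciita with 0.677 CPM per kb. Neighbours H2-Ab1 and H2-Aa had 988 ± 92.2 and 729 ± 128 CPM on transcripts of 1212 and 1128 bases. Per kb, H2-Aa lay below H2-Ab1 in every library of both groups, at 0.706 to 0.885 of its level. Among 24464 genes ranked by level per length, Cd74 moved from place 39 in isotype to 24 in anti-NK1.1 libraries, H2-Ab1 from 66 to 29, H2-Aa from 86 to 34 and H2-Eb1 from 186 to 64. H2-Ob held place 3924 and then 4008. Together the 10 genes took 0.486%, 0.496% and 0.463% of gene counts after the isotype antibody, and 1.47%, 1.01% and 1.06% after anti-NK1.1.

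The balance between genes was compared within each library, where the depth of the library cancels but its trend with length and GC content does not. Without a correction for that trend the chains kept their proportions. H2-Aa over H2-Ab1, in CPM per kb, was 0.790 ± 0.0850 with isotype and 0.768 ± 0.0602 with anti-NK1.1 (SD, n = 3 each). H2-Eb1 over H2-Ab1 was 0.439 ± 0.0264 and 0.417 ± 0.0322. Cd74 over the sum of the 3 chains was 0.723 ± 0.0886 and 0.656 ± 0.0954. All 3 of these ratios differed by less than the spread between libraries. With the length and GC offsets the log2 changes were less alike, at 1.30 for H2-Aa, 1.29 for H2-Eb1, 1.03 for H2-Ab1 and 0.90 for Cd74.

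Loading genes were lower relative to the chains after anti-NK1.1. H2-DMa over H2-Ab1 was 0.229, 0.204 and 0.228 in isotype and 0.111, 0.135 and 0.132 in anti-NK1.1 libraries, and H2-DMb1 over H2-Ab1 was 0.133, 0.138 and 0.158 against 0.0910, 0.0986 and 0.0975. For both ratios the groups did not overlap, and anti-NK1.1 2 sat with its own group. Within H2-DM, the ratio of H2-DMb1 to H2-DMa was 0.651 ± 0.0612 in isotype and 0.762 ± 0.0487 in anti-NK1.1 libraries, again without overlap. For the inhibitor, H2-Oa over H2-DMa was 0.247 ± 0.0336 against 0.185 ± 0.0317, and H2-Ob over H2-DMb1 was 0.130 ± 0.0476 against 0.0685 ± 0.0346, and for both the groups overlapped. With the length and GC offsets the log2 changes were 0.29 for H2-DMa and 0.63 for H2-DMb1, against 1.03 for H2-Ab1. The ratios above carry no such offsets, come from the contrast that chose the genes and were not tested.

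**Figure D3:**
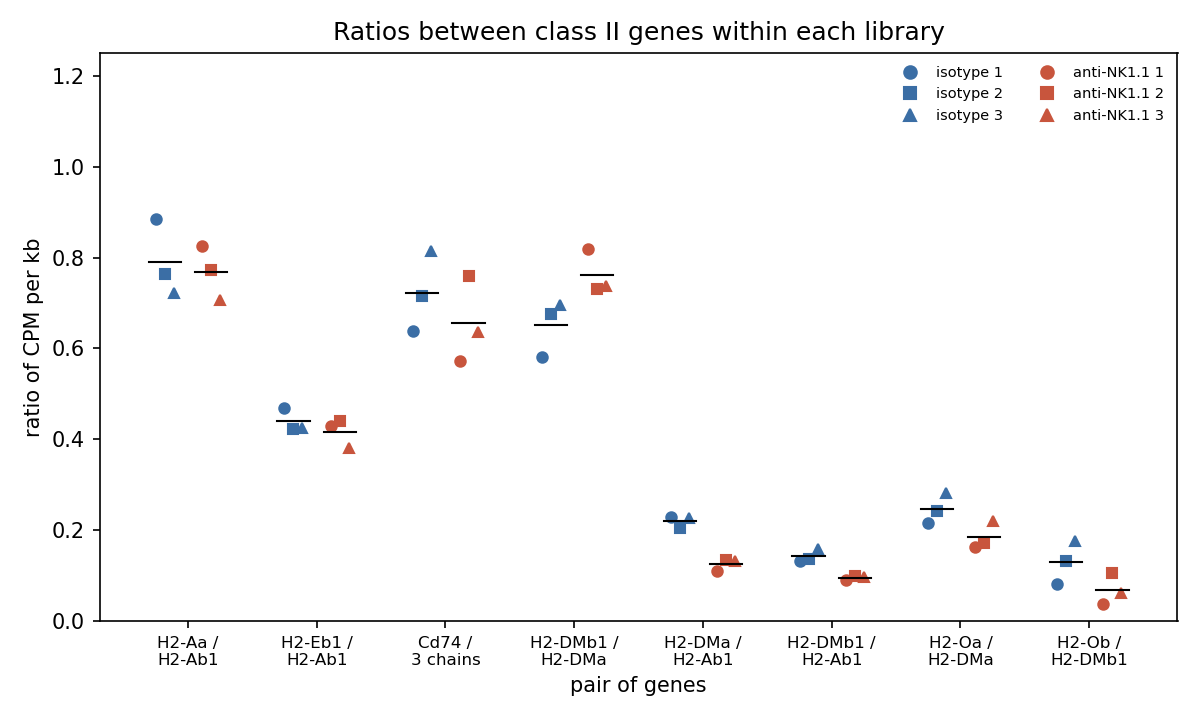
Ratios of levels per length (CPM per kb) between class II genes in each library; blue is isotype, red is anti-NK1.1, marker shapes are libraries 1 to 3, and bars are group means (n = 3). Ratios among the chains overlap between the groups, whereas H2-DMa and H2-DMb1 relative to H2-Ab1 are lower in all 3 anti-NK1.1 libraries. No length and GC offsets are applied here.

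Within the groups, 6 genes varied together. After each group was centred on its own mean, the 15 pairs among Cd74, H2-Aa, H2-Ab1, H2-Eb1, H2-DMa and H2-DMb1 had Pearson's r of 0.81 to 1.00 over the 6 libraries, with H2-Aa and H2-Eb1 the closest. The other 30 pairs ranged from -0.84 (H2-Aa with H2-Ob) to 0.85 (H2-Ob with Ciita), and Ciita with Cd74 had -0.01. These values are descriptive: 6 libraries leave few degrees of freedom, and genes in 1 library share its depth and its length trend. The spread of the 6 genes was 3.20% to 17.5% of the mean in isotype and 16.0% to 32.3% in anti-NK1.1 libraries, where library 2 was the lowest for all 6. Library 2 is also the treated library with no loss of long transcripts, and whether its lower values follow from that was not tested.

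Genes whose pattern over the 6 libraries was most like the mean of Cd74, H2-Aa, H2-Ab1 and H2-Eb1 were, by Pearson's r of log2 CPM, Lgals3bp, Ctss, Tmem176b, Tesk1, Ms4a7, St6galnac6, Cd72 and Slc35b2, with r from 0.98 to 0.99. Ctss is cathepsin S, the protease that trims the invariant chain. Ms4a7 marks border macrophages, and Cd72 is a lectin-like receptor best known from B cells. Ms4a7 went from 21.1, 22.9 and 19.3 CPM to 70.7, 35.7 and 45.8 CPM, and Cd72 from a mean of 23.8 ± 2.63 CPM to 46.4 ± 4.69 CPM (SD, n = 3 each). Since the groups do not overlap, r over all 6 libraries mostly restates the group difference. After centring each group, the 8 most similar genes were Cops3, Tmem176b, Rpl12, Dmac1, Gpr137, Mvb12a, B3gat3 and Cbx7, with r of 0.99 to 1.00. Their log2 changes ran from 0.07 (Cbx7) to 0.63 (Tmem176b). Tmem176b, at 786, 800.4 and 710.0 CPM against 1388, 1002 and 1171 CPM, was the only gene in both sets. Each set is the top of 8285 genes searched over 6 libraries, so values of r this high come in part from the search itself.

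The proteases and other lysosomal genes of the pathway shifted by small amounts. Of 10 tested genes 8 were higher and 2 lower, with a median log2 change of 0.21, and edgeR called none. For 6 of them (Ctss, Ctsl, Ctsb, Ctsd, Ctsz and Lgmn) every anti-NK1.1 library lay above every isotype library, where 7.73% of tested genes did. Ctss had 7799, 8158 and 7687 CPM in isotype and 11200, 9518 and 10201 CPM after anti-NK1.1, and its log2 change was 0.39 ± 0.17. Ctsz, a carboxypeptidase, and Ctsd, an aspartic protease, had log2 changes of 0.50 ± 0.22 and 0.30 ± 0.19. Ifi30, the thiol reductase that interferon gamma induces in antigen-presenting cells and that was named after its values were seen, had -0.01 ± 0.23. With the length and GC offsets the list's median was 0.13, with 9 of 10 higher, and with anti-NK1.1 2 as the only treated library it was 0.15.

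The genes listed for class II transcription did not follow the chains as a set. Of 9 tested genes of class II transcription 3 were higher and 6 lower, with a median log2 change of -0.27 (-0.17 with the offsets, -0.12 with anti-NK1.1 2 as the only treated library), and none was called or had groups that did not overlap. Rfx5, a subunit of the X box factor RFX, had 5.36, 11.8 and 22.5 CPM in isotype and 7.26, 5.08 and 4.15 CPM after anti-NK1.1, with a log2 change of -1.27 ± 0.60. Nfya, a subunit of the Y box factor NF-Y, had -0.66 ± 0.57, and Creb1, which binds the X2 box, had -0.27 ± 0.32. The transcripts of Rfx5, Nfya and Creb1 are long, at 4333, 3706 and 5009 bases. The part of length in their values was not tested. Other subunits of RFX and NF-Y, named after their values were seen, had smaller changes. Rfxap had 0.24 ± 0.29, Rfxank 0.05 ± 0.29, Nfyb 0.07 ± 0.39 and Nfyc -0.07 ± 0.38.

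Nor did the receptor and kinases of interferon gamma signalling. Of 9 tested genes 3 were higher and 6 lower, with a median log2 change of -0.54, and edgeR called none. The median was -0.44 with the offsets and -0.11 with anti-NK1.1 2 as the only treated library. At an unadjusted p under 0.05 there were 2 lower, against 3.80% of all tested genes, and DESeq2 called 1 lower, Jak2, against 0.242%. Jak2, a kinase of the receptor, had 19.7, 15.5 and 29.6 CPM in isotype and 5.46, 6.51 and 2.75 CPM after anti-NK1.1, with a log2 change of -2.14 ± 0.50. Irf1, a transcription factor that the pathway induces and that acts on Ciita, had 120.4, 97.0 and 133 CPM against 86.7, 78.3 and 75.1 CPM, a log2 change of -0.54 ± 0.22. For Jak2 and Irf1 every anti-NK1.1 library lay below every isotype library, where 7.59% of tested genes did. For Socs1, a gene of this list named after its values were seen, every anti-NK1.1 library lay above, where 7.73% did. Socs1 had 5.83, 8.06 and 6.66 CPM in isotype and 9.52, 11.6 and 9.29 CPM after anti-NK1.1, a log2 change of 0.56 ± 0.47. The Jak2 transcript is long, at 5030 bases, and anti-NK1.1 libraries 1 and 3 were poor in long transcripts. The part of that in its values was not tested.

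Among genes of class II turnover and the tetraspanins that sit with class II molecules in endosomes and at the surface, 5 of 7 tested had values above 0. Their median log2 change was 0.44 (0.29 with the offsets, 0.11 with anti-NK1.1 2 as the only treated library), and edgeR called none. Cd81, a tetraspanin, had 2653, 2910 and 2402 CPM in isotype and 4466, 3016 and 4046 CPM in anti-NK1.1 libraries, without overlap, and a log2 change of 0.53 ± 0.21. The tetraspanin Cd82 had 0.44 ± 0.22. Sppl2a, the protease that clears the membrane stub of the invariant chain, had -0.51 ± 0.25, with 231 CPM in anti-NK1.1 2 inside the isotype range of 209 to 284 CPM. The ubiquitin ligases Marchf1 and Marchf8 were not analysed here.

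**Figure D4:**
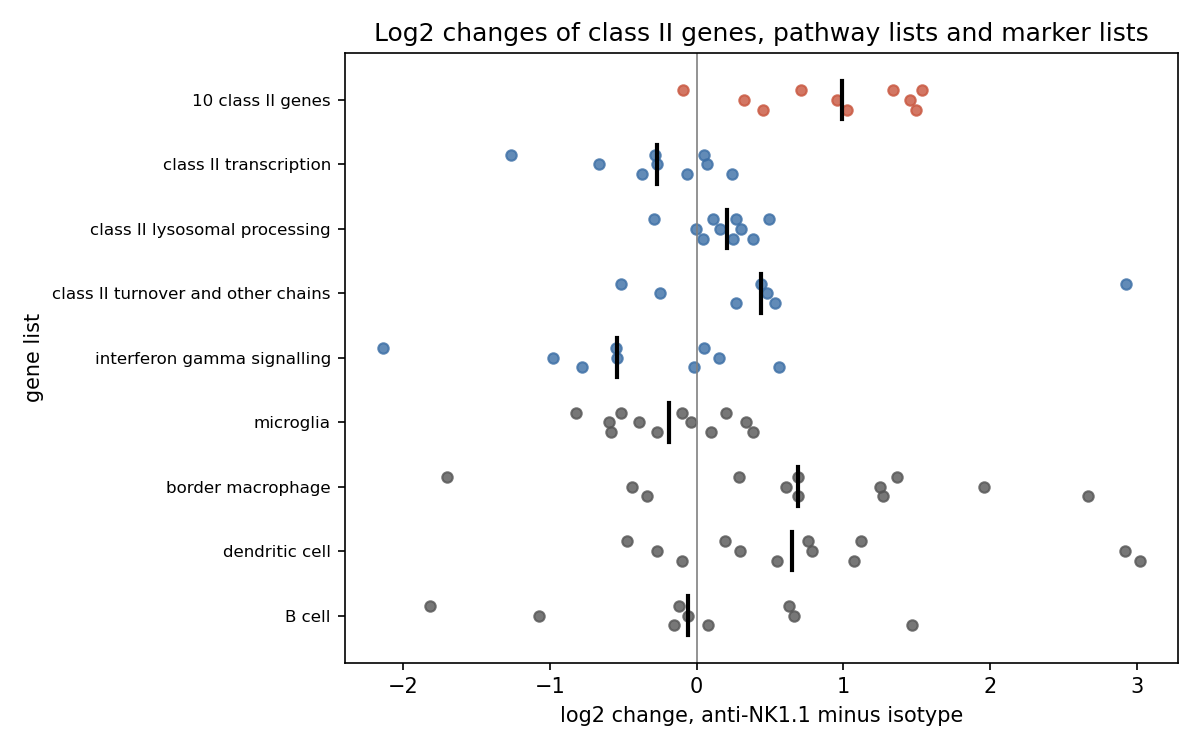
Log2 change of each tested gene, anti-NK1.1 minus isotype, for the 10 class II genes (red), 4 lists of pathway genes (blue) and 4 marker lists (grey); each dot is 1 gene, vertical bars are list medians, and the vertical offset of dots has no meaning. The class II median is 0.99, a value fixed in part by the choice of genes. Medians of the transcription, interferon gamma, microglia and B cell lists lie below 0, but those of microglia and B cells turn above 0 with the length and GC offsets and with anti-NK1.1 2 as the only treated library.

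Markers of other cells that carry class II were measured beside these values. The 10 class II genes summed to 4890, 4901 and 4346 CPM in isotype and 14863, 9228 and 12279 CPM in anti-NK1.1 libraries. Border macrophage markers, 12 of 12 tested, summed to 417 to 611 CPM in isotype and 436 to 499 CPM in anti-NK1.1 libraries. In isotype libraries most of this sum was F13a1 and Clec12a, both named after their values were seen. Their means were 184 and 144 CPM in isotype and 56.7 and 114 CPM in anti-NK1.1 libraries, so the sum hides the other markers. Within that list 9 were higher (median log2 change 0.69), and for 5 every anti-NK1.1 library lay above every isotype library (7.73% of all tested genes), among them Mgl2 (1.25 ± 0.28), Pf4 (1.37 ± 0.35) and Ms4a7 (1.27 ± 0.33). For 1, F13a1, named after its values were seen, every anti-NK1.1 library lay below (-1.70 ± 0.52). DESeq2 called 3 of the list higher, against 0.332% of all genes. The list's median was 0.64 with the offsets and 0.82 with anti-NK1.1 2 as the only treated library. Mrc1 and Cd163, which define these cells, were at 3.91 to 34.4 CPM and 0 to 2.98 CPM over all libraries. Cd163 was at 0 in anti-NK1.1 1 and 3. Their log2 changes were -0.44 ± 0.82 and 0.69 ± 1.97. Cd209f and Lyve1 were scarce too, with log2 changes above 0. Cd209f had 2.29, 1.12 and 0.993 CPM against 3.84, 11.4 and 12.7 CPM (2.67 ± 0.74). Lyve1 had 1.26, 0.930 and 2.14 CPM against 1.62, 10.2 and 4.98 CPM (1.96 ± 0.90), with overlap. Mrc1, Cd163, Cd209f and Lyve1 were named after their values were seen. The 3 markers of the list with values below 0 were Mrc1, F13a1 and Clec12a. Of 14 dendritic cell markers 12 were tested and 9 were higher (median 0.65, with the offsets 0.51, and 0.10 with anti-NK1.1 2 as the only treated library). Their summed level was 1780 to 1854 CPM in isotype and 1627 to 1993 CPM in anti-NK1.1 libraries, most of it Siglech, which microglia share. Cd209a had 22.8, 12.6 and 28.7 CPM against 43.0, 42.5 and 53.8 CPM (log2 change 1.12 ± 0.36), and Batf3 had 0.79 ± 0.38. Clec10a had 1.07 ± 0.63, and Zbtb46, which defines conventional dendritic cells, had at most 0.876 CPM. B cell markers, 9 tested of 10 in the table, summed to 65.4 to 112.1 CPM in isotype and 111.8 to 141 CPM in anti-NK1.1 libraries, with 4 higher and a median of -0.06, which turned to 0.14 with the offsets and to 0.01 with anti-NK1.1 2 as the only treated library. Cd79b had 44.4, 54.8 and 34.9 CPM against 76.7, 55.0 and 80.7 CPM (log2 change 0.66 ± 0.28) and Ebf1 had -1.82 ± 1.13. The part of these cells in the class II values was not tested.

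Other myeloid cells moved in a different way from the class II genes. Monocyte markers summed to 6150 to 6461 CPM in isotype and to 2326, 2740 and 8451 CPM in anti-NK1.1 libraries 1 to 3. By this sum library 3 had the most and libraries 1 and 2 the least, as with the neutrophil markers. The largest part of the sum was Chil3, named after its values were seen, at 867, 1236 and 4085 CPM in those libraries. Ccr2 and Fn1 had another order there, at 18.9, 63.8 and 37.4 CPM and at 15.6, 20.2 and 17.0 CPM, so the sum does not stand for every marker. Of 12 monocyte markers 8 were lower, with Fn1 at -2.41 ± 0.38 and Ccr2 at -1.68 ± 0.43, and all 13 neutrophil markers had values below 0, with Cxcr2 at -0.94 ± 0.30 and Mmp9 at -0.90 ± 0.35. In anti-NK1.1 libraries 1 to 3 the class II sums were 14863, 9228 and 12279 CPM, beside neutrophil sums of 32811, 33530 and 142630 CPM. The neutrophil sums of libraries 1 and 2 are close, so their order says little. The part of these cells in the class II values was not tested. The monocyte median was -0.39 (-0.57 with the offsets, -1.09 with anti-NK1.1 2 as the only treated library) and the neutrophil median -0.34 (-0.52 and -1.31). Among the microglia markers 4 were higher and 8 lower, with P2ry12 at -0.58 ± 0.23, P2ry13 at -0.59 ± 0.26 and Sall1 at -0.82 ± 0.39. For P2ry13 and Sall1 anti-NK1.1 2 lay inside the isotype range. The microglia median of -0.19 turned to 0.0020 with the offsets, with 6 of 12 higher, and to 0.13 with anti-NK1.1 2 as the only treated library, so no direction can be given for that list. When counts were scaled to the summed microglia markers, the median of the 10 class II genes was 1.098, with the median of all genes at 0.11.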

How the data were processed

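The values deposited by the authors are whole read counts per gene and library; the table is described as normalized, but totals differ between libraries and no scaling was visible. The submitters' processing notes list STAR 2.5.3a, with build mm10, beside DESeq2 1.1, Cufflinks 2.0, bcl2fastq 2.20.0.422 and FastQC 1.0.0. Which program counted, on which annotation and strand, is not stated there. Per the labels' protocols, cDNA came from the SMART-seq v4 kit and libraries from Nextera XT, read as 75 bp single ends. These kits add no molecular identifiers, so floors of 3 counts cover counting error only. Left out were 26 rows with a calendar date as symbol and, from sizes and tests, the 2 rows of reads in no feature (53.3% to 57.4% of reads) or ambiguous (0.293% to 0.366%).

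Genes passing edgeR's filterByExpr got TMM factors. The main test was edgeR's two-sided quasi-likelihood F-test (edgeR 4.0.16, R 4.3.3) on group alone, called at a Benjamini-Hochberg adjusted p under 0.05 over every tested gene. The SE is the absolute log2 change over the square root of F. DESeq2 1.42.0 and limma 3.58.1 (voom, sample weights) were alternatives, as were other scalings and filters, left-out libraries, a replicate block, and offsets from natural splines (4 degrees of freedom) of each library's deviation on transcript length and GC content. The fit was tested on simulated data. Loci and lengths (principal transcript) are from GENCODE M21 on GRCm38, matched by symbol for 98.0% of genes. Libraries of 1 group differed far beyond counting noise, so none was a repeat deposit.

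The members and lists were chosen with earlier results of these data known. Named genes are the 10 members, up to 3 genes of smallest p in each list, and the 8 genes of highest correlation by each measure among genes of mean CPM of at least 10, leaving out predicted loci, pseudogenes and small RNA genes; any other was chosen after its values were seen, and a few that the rule names are not reported here.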

Additional observations from a re-analysis of the deposited data

How the results depend on the processing

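The log2 changes of Cd74, H2-Aa, H2-Ab1, H2-Eb1, H2-DMa, H2-DMb1 and Ciita stayed above 0 under all 17 alternatives, with ranges of 0.90 to 1.45, 0.98 to 1.70, 1.02 to 1.74, 1.02 to 1.63, 0.29 to 0.88, 0.49 to 1.14 and 0.45 to 2.19. The median over the 10 genes ranged from 0.73 to 1.16. The number of genes called, 0 with edgeR, was 83 with DESeq2 (48 higher, 35 lower) and 4 with limma voom (all higher), and the number among the 10 was 5 and 3. Of the other pathway genes DESeq2 called 1. Leaving out 1 library at a time gave 0 to 129 calls over all genes and 0 to 5 among the 10, and only the fit without anti-NK1.1 2 made any. The cause of these differences was not tested.

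H2-DMb2 turned to -0.12 without anti-NK1.1 3 and to -0.24 without anti-NK1.1 1 and 3. H2-Oa turned to -0.17 with the length and GC offsets, -0.16 with these and the replicate block, and -0.19 without anti-NK1.1 1 and 3. H2-Ob turned to 0.09 (0.0916) with the length and GC offsets, to 0.15 with these and the replicate block, to 0.19 without anti-NK1.1 1 and 3, to 0.01 (0.0070) with microglia scaling, to 0.17 without isotype 3 and to 0.09 without anti-NK1.1 1; leaving out 1 library at a time gave -0.34 to 0.17. With the replicate block alone edgeR called 0 genes, and the median of the 10 was 1.12. Libraries with the same number did not deviate together (r of 0.05, 0.03 and -0.00), so no pairing by number was visible. Such values cannot show whether these libraries were handled together. With 3 libraries a group, the SE of Ciita, of H2-DMb2 and of H2-Ob exceeded the size of their log2 changes, and H2-Eb2 had at most 30 counts in a library.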
